A study of Sus scrofa with 24 samples.

Results

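The genes described here carry thyroid hormone into the brain, activate it, bind it and answer to it: SLCO1C1, DIO2, THRA, THRB, CRYM, KLF9 and HR. They were chosen by name, as the rows of the deposited count tables whose Entrez identifier belongs to one of these 7 pig symbols, out of 38882 listed genes. All 7 were among the 16326 genes that passed the filter on low counts. The libraries are single-end RNA sequencing of hippocampal tissue from 24 piglets killed at day 14, and each piglet gave 1 library. The piglets were full-term offspring of PIC Camborough dams and a PIC 359 sire, and were either small for gestational age (SGA) or appropriate for gestational age (AGA) by birth weight. Both kinds were reared on formula, either a control formula (CON) whose fat was triglyceride oil or a hydrolyzed fat formula (HF), in which part of the fat was supplied as free fatty acids, monoacylglycerol and lecithin. This gave AGA CON, SGA CON, AGA HF and SGA HF groups of 6 piglets each, with both sexes represented. SGA and AGA piglets came as sex-matched littermate pairs that shared a diet, so that the 24 libraries form 12 litters, 6 on each diet, studied in 2 cohorts. No group was untreated or dam-reared, so CON is the reference for diet and AGA for size. Thyroid hormone itself was not measured.

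The thyroid gland releases mainly the prohormone T4, which enters the brain through membrane carriers, among them SLCO1C1 in brain capillaries and astrocytes. The selenoenzyme DIO2, found mainly in astrocytes and in the tanycytes of the third ventricle, converts T4 to the active hormone T3. T3 then binds the nuclear receptors THRA and THRB, which sit on DNA with a retinoid X receptor partner, hold target genes down with corepressors when empty, and switch to coactivators when T3 is bound. In the perinatal brain this system is known for its part in neuronal maturation and in the timing of myelination.

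The counts resolved the genes to very different degrees. Total counts ranged from 6017336 to 9284355 per library, at which 3 counts correspond to 0.323 to 0.499 CPM (counts scaled to a common library size, with TMM factors in all values below), and such limits cover counting error only. CRYM had 2237 to 5108 counts per library and THRA 1661 to 3045. THRB had 381 to 639, HR 185 to 466 and SLCO1C1 144 to 385. KLF9 had only 5 to 30 and DIO2 only 3 to 21, so a single library says little about either gene. The hippocampal and neuronal markers NRGN, SLC17A7, CAMK2A, NEUROD2 and PROX1 were all detected in every library, with PROX1, the lowest of them, at 245 to 508 counts. Of the further markers on the list of excitatory and hippocampal neurons, WFS1 had only 11 to 58 counts per library. ZBTB20 was at 0 or 1 count in every library. Of the pituitary markers, TSHB and POU1F1 were at 0 in all libraries, while POMC had 165 to 410 counts per library. The highest counts of GH1 (2574), PRL (62) and CGA (60) were all in 1 library, SGA HF replicate 4 of litter 7. The part of these in the values of that piglet was not tested, and each edgeR and littermate result was also read without litter 7.

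The gene models give each gene's place in the Sscrofa10.2 assembly. THRA (gene 397387) lies on the plus strand of chromosome 12 at 22488984 to 22497735, with 7 counted exon intervals that cover 1177 bases. THRB (396776) lies on the minus strand of chromosome 13 at 12399964 to 12857951, with 17 intervals and 7483 bases. DIO2 (414379) is on the minus strand of chromosome 7 at 109299323 to 109308576, with 3 intervals and 837 bases. SLCO1C1 (100522616) is on the plus strand of chromosome 5 at 55511431 to 55592551, with 17 intervals and 3541 bases. KLF9 (494562) is on the plus strand of chromosome 1 at 250030719 to 250054070, with 2 intervals and 735 bases. HR (397617) is on the minus strand of chromosome 14 at 6822598 to 6840654, with 19 intervals and 5036 bases. CRYM (100525333) is on the plus strand of chromosome 3 at 25531621 to 25569585, with 8 intervals and 1308 bases. The counted lengths of DIO2, KLF9 and CRYM are multiples of 3, and those of DIO2 and KLF9 are the shortest of the 7. For every gene, reads from parts of the transcript outside the counted bases were not counted. Only THRB shared counted bases with another listed gene. That gene, 106505553, lies on the same strand, overlaps THRB by 82 bases and had 89 counts over all 24 libraries. The counts are per gene, so splice forms of THRA and THRB, including forms that do not bind T3, cannot be told apart.

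Per kb of counted exon, the cytosolic T3-binding protein CRYM was the most abundant of the 7, at 381 CPM per kb over the 24 piglets, above 98.7% of the genes tested. The receptor THRA followed at 254 CPM per kb, and CRYM was above THRA in 24 of 24 libraries. The second receptor, THRB, stood at 8.82 CPM per kb. THRA was above THRB in 24 of 24 libraries, by a ratio between 21.4 and 43.4 with a median of 28.3. This ratio rests on counted lengths of 1177 bases for THRA and 7483 for THRB. Without scaling by length, the means were 298 and 66.0 CPM. SLCO1C1 at 8.76 CPM per kb and HR at 8.31 CPM per kb could not be ordered against THRB. THRB was above SLCO1C1 in 13 of 24 libraries, and SLCO1C1 above HR in 13 of 24. KLF9 at 3.00 CPM per kb was below HR in 24 of 24 libraries, and DIO2 at 1.45 CPM per kb was below KLF9 in 24 of 24. The last pair rests on few counts and on the short counted lengths given above. Levels per length also depend on how much of each transcript the gene model holds. The libraries were made from polyA-selected RNA, and the paper attributes its average RNA quality number to pre-spliced RNA. The part of RNA quality in these levels and ratios was not tested.

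**Figure D1:**
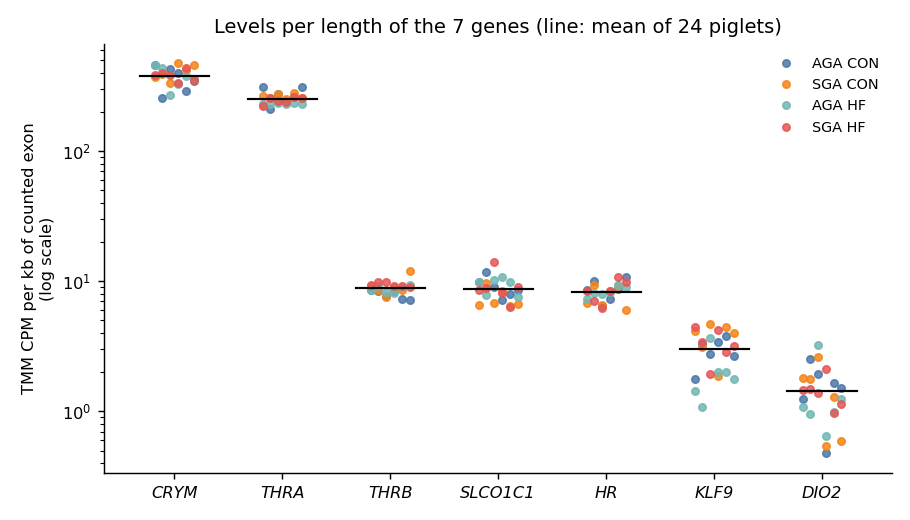
TMM CPM per kb of counted exon (log axis) for each gene, with 1 point per piglet coloured by group and a line at the mean of 24 piglets. CRYM and THRA stand far above the other 5 genes, THRB, SLCO1C1 and HR share one level near 8 to 9 CPM per kb, and KLF9 and DIO2 lie lowest with the widest spread.

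The spread between piglets differed among the genes. The coefficient of variation of CPM over 24 piglets was 9.77% for THRA and 11.4% for THRB. It was 15.7% for CRYM, 16.5% for HR and 20.9% for SLCO1C1. For KLF9 it was 35.4% and for DIO2 47.5%, where counting error alone would give 24.5% and 33.2%. On the log2 scale (prior count 2), the SD of THRA was 0.14 and that of THRB 0.16, while the median over all genes tested was 0.28.

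Size, diet and their interaction were tested with edgeR across all 16326 genes, with sex and 5 surrogate variables in the fit. This fit had no term for litter, so littermates counted as separate piglets in its p-values and intervals. A gene was called at a Benjamini-Hochberg FDR p under 0.4, taken over 7 contrasts together, a lenient threshold at which up to 40% of calls may be false. None of the 7 genes was called in any of the 7 contrasts. The background of called genes was 0.478% for the main effect of size, 0.159% for diet and 0.0490% for the interaction. Among the pairwise comparisons it was 0.129% for SGA CON vs AGA CON, 0.288% for SGA HF vs AGA HF, 0.0674% for AGA HF vs AGA CON and 0.0919% for SGA HF vs SGA CON. With so few calls in all, 0 of 7 does not set these genes apart from the rest. At an unadjusted p under 0.05, 2 of 7 genes (THRB and KLF9) were reached for size, where 10.6% of all genes were. For diet 2 of 7 (THRA and KLF9) were reached against 7.09%, and for the interaction 1 of 7 (SLCO1C1) against 4.01%. Limma voom and the DESeq2 Wald test likewise called 0 of 7 in each contrast. Because littermates share a dam, size was also tested on the SGA minus AGA difference of each litter, by an exact sign-flip test, and diet by the means of 6 against 6 litters with an exact permutation test. Both were two-sided and adjusted over all 16326 genes. In the littermate test 12.7% of all genes had an adjusted p under 0.4, and 2 of the 7 genes did, THRB and KLF9. In the diet test no gene of the 16326 did, and 4.10% had an unadjusted p under 0.05. The smallest p of that permutation test was 0.00216. Only genes whose litter means do not overlap between diets reach it, which were 0.172% of all genes. With so few, no gene could pass after adjustment, so a high adjusted p in the diet test says little.

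**Figure D2:**
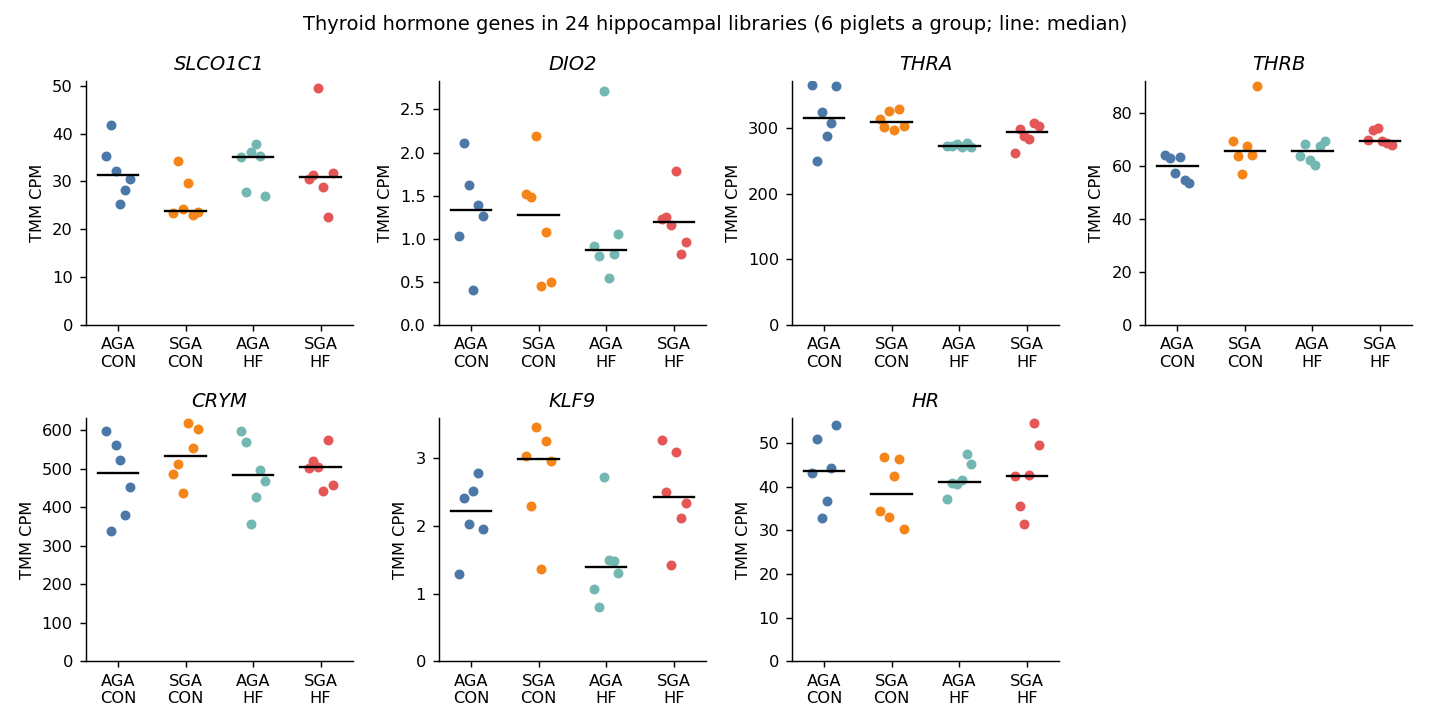
TMM CPM of each gene in the 4 groups (linear axes from 0), with 1 point per piglet, 6 per group, and a line at the group median. Groups that differ in size alone or in diet alone overlap for every gene, THRA is nearly constant among the 6 AGA HF piglets, and THRB has 1 high SGA CON piglet at 90.2 CPM.

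SLCO1C1, the T4 carrier, showed no size difference that passed either test with all 12 litters. It ranged from 25.3 to 41.7 CPM in AGA CON piglets with a median of 31.4, and from 22.9 to 34.3 CPM in SGA CON piglets with a median of 23.9. On the HF diet, AGA piglets ranged from 26.9 to 37.9 CPM (median 35.1) and SGA piglets from 22.5 to 49.6 CPM (median 30.9). All 4 ranges overlapped, although the SGA CON median lay below the lowest AGA CON value. The main effect of size was a log2 fold change of -0.045 (SE 0.099, edgeR FDR = 0.963). Between littermates SLCO1C1 differed by -0.17 ± 0.36 on the log2 scale (SD, n = 12 litters) and was higher in the SGA piglet in 4 of 12 (exact p = 0.124, adjusted 0.536). Without litter 5 the difference was -0.23 and passed the threshold (exact p = 0.0410, adjusted 0.374). By diet, the SGA piglet was higher in 1 of 6 CON litters, with a mean difference of -0.28 ± 0.27, and in 3 of 6 HF litters, with -0.060 ± 0.42. The interaction in edgeR was 0.38 on the log2 scale (95% interval 0.00015 to 0.77, an unadjusted p of 0.0499) and was not called (FDR = 0.736). It was 0.093 without litter 5, whose SGA HF piglet gave the 49.6 CPM, and -0.12 among the cohort 2 litters alone. Endothelial markers, summed over the 7 of the list, had similar medians in the groups, from 211 CPM in SGA HF to 228 CPM in SGA CON. For astrocyte markers, also 7, the summed CPM ran from 8100 to 9613 in SGA CON (median 8979) and from 8613 to 12730 in AGA CON (median 10187). On HF the order of the medians was reversed, with 8761 to 10186 in SGA HF (median 9373) and 7736 to 12321 in AGA HF (median 8671). Most of this sum is GFAP, at a mean of 8236 CPM. The part of the endothelial and astrocyte markers in the SLCO1C1 values was not tested. In bulk tissue, fewer cells of a type and less RNA per cell cannot be told apart.

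DIO2, the activating deiodinase, was near the limit of detection and showed no difference by size or diet that these counts could resolve. It ranged from 0.398 to 2.11 CPM in AGA CON (median 1.33), from 0.455 to 2.19 in SGA CON (median 1.28), from 0.542 to 2.71 in AGA HF (median 0.867) and from 0.821 to 1.78 in SGA HF (median 1.19). The 4 ranges overlapped. Littermates differed by 0.018 ± 0.67 (log2, SD, n = 12 litters), with 6 of 12 SGA piglets higher (exact p = 0.935, adjusted 0.982). The 95% interval of the size effect in edgeR ran from a fold of 0.657 to 1.45, so changes inside these bounds were compatible with the counts. The smallest detectable change was not computed. The widest contrast for DIO2 was between cohorts. Cohort 1 piglets had 0.800 to 2.71 CPM (median 1.36) and cohort 2 piglets 0.398 to 1.78 CPM (median 0.891), from 5 to 21 and 3 to 15 counts. The litter means were 0.59 lower on the log2 scale in cohort 2 (exact permutation p = 0.0130, adjusted 0.273, 6 against 6 litters), a comparison in which 12.5% of all genes had an adjusted p under 0.4. The adjusted p was 0.401 without litter 8, and the litter means of the cohorts overlapped. Total counts ran from 6017336 to 8450733 in cohort 1 and from 6224421 to 9284355 in cohort 2, and summed astrocyte markers had medians of 9433 and 9088 CPM. Their part in the cohort difference was not tested. For sex, female litters were 0.45 lower in DIO2 on the log2 scale (exact permutation p = 0.0844, adjusted 0.933). Cohort 1 held 4 male and 2 female litters and cohort 2 held 2 male and 4 female, and each test ignored the other factor, so the cohort and sex differences cannot be fully told apart. Litter means of DIO2 averaged 0.79 (male) and 0.69 (female) on the log2 CPM scale in cohort 1, and 0.47 and 0.011 in cohort 2.

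THRA, the receptor that predominates in brain, was lower on average on the HF diet by an amount that edgeR did not call, and differed little with size. AGA CON piglets had 250 to 366 CPM with a median of 316, and AGA HF piglets 272 to 277 CPM with a median of 273. The AGA HF values were thus almost the same in the 6 piglets and lay inside the wide AGA CON range. SGA CON piglets had 298 to 330 CPM (median 309) and SGA HF piglets 263 to 308 CPM (median 294). The diet effect in edgeR was -0.12 on the log2 scale (SE 0.049, 95% interval -0.22 to -0.014), a fold of 0.923, with an unadjusted p of 0.0281 and an FDR p of 0.677. With counts summed per litter it was -0.15 (edgeR, unadjusted p = 0.0245, FDR = 0.999). With litter as a random replicate block it was -0.15 (limma, unadjusted p = 0.0121, FDR = 0.681). The mean of the HF litters was 8.14 ± 0.044 and that of the CON litters 8.29 ± 0.12 on the log2 CPM scale (SD, n = 6 litters each). These means overlapped, and the exact permutation test gave p = 0.0281 with an adjusted p of 1.00. Of all genes tested, 0.172% had litter means that did not overlap between diets. In AGA piglets alone the fold change on HF was -0.17 (FDR = 0.660) and in SGA piglets alone -0.065 (FDR = 0.903), and the difference between those is the interaction, which was not called (0.10, FDR = 0.888). Leaving out litter 4, whose AGA CON piglet had the lowest THRA level, took the diet effect to -0.19 with an FDR p of 0.270, and it was also called without litter 5 (FDR = 0.316) and without litter 8 (FDR = 0.395). Over all genes, diet calls rose from 26 to 237 without litter 4, 757 without litter 5 and 153 without litter 8. These changes were thus not particular to THRA. For size THRA was higher in the SGA piglet in 9 of 12 litters and differed by 0.038 ± 0.15 between littermates (exact p = 0.413, adjusted 0.789) and by 0.028 in edgeR (FDR = 0.952).

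THRB, the second receptor, was higher in the SGA piglet in 10 of 12 litters, a small difference that passed in the littermate test but not in edgeR. AGA CON piglets had 53.4 to 64.1 CPM (median 60.1) and SGA CON piglets 56.8 to 90.2 CPM (median 65.8). On HF, AGA piglets had 60.5 to 69.5 CPM (median 65.5) and SGA piglets 68.1 to 74.4 CPM (median 69.6). The AGA HF and SGA HF ranges overlapped between 68.1 and 69.5 CPM. Between littermates the difference was 0.16 ± 0.21 on the log2 scale (SD, n = 12 litters, exact p = 0.00391, adjusted 0.173). Of all genes tested, 3.80% were higher in SGA in at least 10 of 12 litters. The differences ran from -0.030 to 0.75, and the largest was in litter 12, which holds the SGA CON piglet at 90.2 CPM. Without that litter the difference was 0.10 (exact test, adjusted p = 0.264), and with any 1 of the 12 litters left out it was 0.10 to 0.17 and still under the threshold. In edgeR the size effect was 0.10 (SE 0.046), a fold of 1.07 with a 95% interval from 1.00 to 1.15, and it was not called (an unadjusted p of 0.0383, FDR = 0.713). With litter as a replicate block in edgeR it was 0.16 (FDR = 0.517), again not called. Within cohorts the littermate difference was 0.10 in cohort 1 and 0.21 in cohort 2, with adjusted p of 0.740 and 0.631 by the exact test over 6 litters each. Over 6 litters the smallest p that this test can give is high, so these adjusted p say little. For diet THRB was 0.096 higher on HF in edgeR (FDR = 0.737) and 0.099 higher in the litter means (exact permutation p = 0.0563, adjusted 1.00). The marker list of excitatory and hippocampal neurons moved with size as well. All 5 of its tested genes had a positive size effect, 1 of them called (CAMK2A, 0.13, edgeR FDR = 0.308), and the summed level was 7637 to 8481 CPM in SGA CON against 5200 to 8073 CPM in AGA CON, and 6833 to 8071 CPM in SGA HF against 5688 to 7992 CPM in AGA HF. The ependymal markers also moved with size. All 3 tested had a positive size effect at an unadjusted p under 0.05, and FOXJ1 was called for size (0.52, edgeR FDR = 0.224) and in SGA HF vs AGA HF (0.59, FDR = 0.382). Their summed level was 73.8 to 101 CPM in SGA CON against 50.2 to 107 CPM in AGA CON, and 78.8 to 133 CPM in SGA HF against 41.3 to 103 CPM in AGA HF, with the tanycyte marker RAX at 0 or 1 count in every library. The oligodendrocyte markers went the other way. All 4 had a negative size effect (median -0.14), with 0 called and 0 at an unadjusted p under 0.05, and their summed levels are given below. The part of these marker lists in the THRB difference was not tested.

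**Figure D3:**
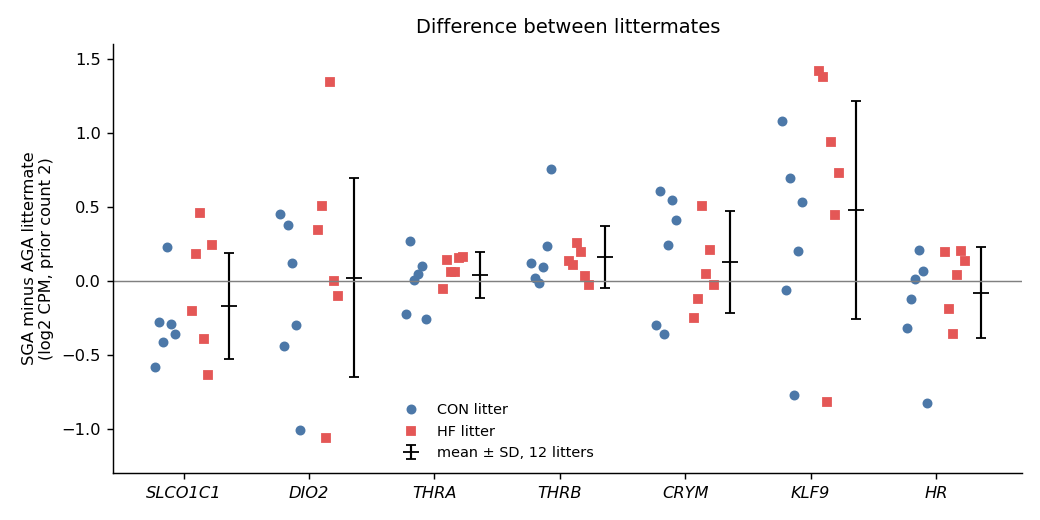
Difference between SGA and AGA littermates in log2 CPM (prior count 2) for each gene, with circles for the 6 CON litters, squares for the 6 HF litters, and the mean ± SD of 12 litters beside them. THRB lies above 0 in 10 of 12 litters at a small size, KLF9 above 0 in 9 of 12 with a wide spread and THRA above 0 in 9 of 12 with a mean of 0.038, and the other genes lie above 0 in 4 to 7 of 12.

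The ratio of THRA to THRB per kb sets the RNA of both receptor genes side by side, and depends on their counted lengths. Its median was 35.9 in AGA CON (25.3 to 43.4), 29.4 in SGA CON (21.4 to 36.5), 26.7 in AGA HF (24.9 to 28.5) and 25.9 in SGA HF (23.9 to 28.5). The HF groups held a narrow part of the range and the CON groups spread over all of it. The ratio was formed after the values of both genes were seen and was not tested.

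CRYM, the cytosolic protein that holds T3 in an NADPH-dependent way, varied among piglets, with no group difference that passed a test. It ranged from 337 to 598 CPM in AGA CON (median 488), from 437 to 618 in SGA CON (median 533), from 355 to 597 in AGA HF (median 483) and from 441 to 574 in SGA HF (median 503). The lowest piglets were AGA in both diets, and the ranges overlapped throughout. Littermates differed by 0.12 ± 0.34 on the log2 scale, with 7 of 12 SGA piglets higher (exact p = 0.231, adjusted 0.661). The edgeR size effect was 0.041 with a 95% interval from -0.11 to 0.19 (FDR = 0.954), and the diet effect 0.039 (FDR = 0.957). The sign of the diet effect turned in the fits without surrogate variables.

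KLF9, a zinc finger transcription factor that T3 induces directly, had the largest size and diet estimates of the 7 genes and some of the lowest counts. AGA CON piglets had 1.29 to 2.78 CPM (median 2.22) and SGA CON piglets 1.36 to 3.46 CPM (median 2.99). AGA HF piglets had 0.800 to 2.71 CPM (median 1.40) and SGA HF piglets 1.42 to 3.27 CPM (median 2.42). In both diets the SGA median lay above the AGA median, in both sizes the HF median lay below the CON median, and all 4 ranges overlapped. The size effect in edgeR was 0.48 (SE 0.20), a fold of 1.40 with a 95% interval from 1.05 to 1.86, with an unadjusted p of 0.0249 and an FDR p of 0.666. It was called when the adjustment was made within the size contrast alone (FDR = 0.382). That adjustment called 1200 of 16326 genes for size in place of 78, so the change was not particular to KLF9. Between littermates the difference was 0.48 ± 0.74 (SD, n = 12 litters), higher in the SGA piglet in 9 of 12, with exact p = 0.0498 and an adjusted p of 0.396, just inside the threshold. Leaving out a litter took the adjusted p to 0.4 or above in 10 of 12 cases, with differences from 0.39 (without litter 1) to 0.60 (without litter 5). With litter as a replicate block in edgeR the value was 0.53 (FDR = 0.567). The neuronal, ependymal and oligodendrocyte markers given for THRB stand beside this difference too, and their part in it was not tested. The diet effect in edgeR was -0.45 (SE 0.20, an unadjusted p of 0.0301, FDR = 0.683), a fold of 0.730 with a 95% interval from 0.551 to 0.967. That interval treats littermates as separate piglets. With counts summed per litter the effect was -0.29 (edgeR, unadjusted p = 0.0681, FDR = 0.999). With litter as a random replicate block it was -0.36 (limma, unadjusted p = 0.105, FDR = 0.838). Over litter means the diet difference was -0.33 (HF 1.06 ± 0.17, CON 1.39 ± 0.23 on the log2 CPM scale, SD, n = 6 litters each), with an exact permutation p of 0.0216 and an adjusted p of 1.00.

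With each of the 12 litters left out in turn, edgeR called KLF9 only without litter 5. The AGA HF piglet of that litter had 2.71 CPM from 21 counts, while the other 5 AGA HF piglets had 0.800 to 1.49 CPM, and its SGA littermate had less. Without litter 5, edgeR called KLF9 for size (0.61, FDR = 0.160), for diet (-0.49, FDR = 0.251), for SGA HF vs AGA HF (0.94, FDR = 0.144) and for AGA HF vs AGA CON (-0.83, FDR = 0.200). With all litters these pairwise values were 0.55 (FDR = 0.755) and -0.52 (FDR = 0.771), and that for SGA CON vs AGA CON was 0.42 (FDR = 0.813). Leaving out litter 5 also took the number of genes called for size from 78 to 1259 and for diet from 26 to 757 in the whole table, so the change was not particular to KLF9.

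HR, the corepressor hairless and a second direct T3 target, gave no difference that passed a test. It ranged from 32.8 to 54.1 CPM in AGA CON (median 43.7), from 30.4 to 46.8 in SGA CON (median 38.4), from 37.1 to 47.4 in AGA HF (median 41.2) and from 31.6 to 54.6 in SGA HF (median 42.6). The HR ranges overlapped. Littermates differed by -0.081 ± 0.31 on the log2 scale, with 7 of 12 SGA piglets higher (exact p = 0.412, adjusted 0.789). The edgeR size effect was 0.027 with a 95% interval from -0.15 to 0.20 (FDR = 0.976). The litter-mean diet difference was 0.049 (exact permutation p = 0.669, adjusted 1.00) and the edgeR diet effect 0.026 (FDR = 0.977). KLF9 and HR, the 2 targets, thus differed in the sign of the littermate mean, and this difference was not tested.

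**Figure D4:**
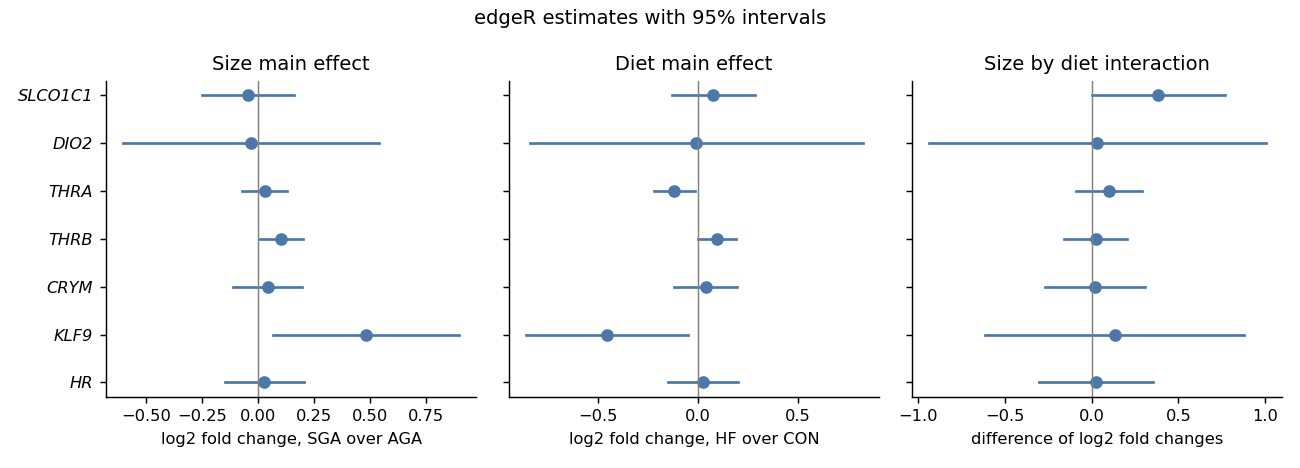
edgeR log2 fold changes with 95% intervals for size (SGA over AGA), diet (HF over CON) and their interaction, with 1 line per gene. Intervals are narrow for THRA and THRB and wide for DIO2 and KLF9, and none of the 21 estimates was called at an FDR p under 0.4.

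Over the 24 libraries the 7 genes did not move as one. Pearson's r between pairs of them, on log2 CPM, ran from -0.62 for DIO2 with CRYM to 0.42 for DIO2 with KLF9, and it was -0.29 for THRA with THRB. These correlations are descriptions over libraries that share litters, groups and depth. The genes most like each one over the same 24 libraries were named by the highest r among tested genes with a symbol. For THRA they were DYSF (r = 0.83), TOM1 and TMEM25. For THRB they were FBXW7 (r = 0.84), a ubiquitin ligase subunit, HLF, a PAR bZIP transcription factor (r = 0.79), and SERTAD4 (r = 0.78). For CRYM they were DOC2A (r = 0.85), FADS3 and SYT5, of which DOC2A and SYT5 are calcium sensors of vesicle release. For SLCO1C1 they were RAD21 (r = 0.79), RFTN2 and CRYZ, and for HR TPPP3 (r = 0.75), CLCN2 and ABHD14A. For KLF9 they were RAD54L2 (r = 0.75), POU6F1 and ACLY, and for DIO2 GLA (r = 0.80), GSR and C7H14orf132, both at the low counts given above for the 2 genes themselves.

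Other genes of the pathway were taken from 4 lists, and none of their members was called for size, diet or the interaction in the edgeR fit described above. Some were called for size under other settings, which changed the totals too. Adjusting within the contrast called 1200 of all 16326 genes for size, and leaving out litter 5 called 1259. SLC7A8 was called with litter as a replicate block (0.28, edgeR FDR = 0.266), with DESeq2 size factors (FDR = 0.367), without the filter on low counts (FDR = 0.309), by the DESeq2 Wald test (adjusted p = 0.116), when adjusted within the contrast (FDR = 0.150), and in 6 of 12 cases with a litter left out (litters 2, 3, 4, 5, 8 and 12). GPS2 was called under the same settings except the block (0.15 to 0.17, edgeR FDR or DESeq2 adjusted p from 0.153 to 0.386), and without litter 4, 5, 8 or 12. SLC7A5 was called by the DESeq2 Wald test (adjusted p = 0.392), within the contrast (edgeR FDR = 0.206), and without litter 5 or 12. Without litter 5, TBL1XR1, CARM1 and NRGN were called for size too. For diet, SLC7A8, TBL1XR1 and RELN were called without litter 5, USP20 without litter 4 and MBP without litter 8, and for the interaction NRGN without litter 4 and RELN without litter 5. Of 9 further hormone carriers 8 were tested, with a median size effect of 0.041 and a median diet effect of -0.090 on the log2 scale, beside -0.0023 and 0.0020 over all genes. The amino acid transporters that also carry thyroid hormone came nearest. SLC7A8, the light chain LAT2, stood at 54.5 CPM per kb and had a size effect of 0.21 (SE 0.053, edgeR FDR = 0.402). Its partner heavy chain SLC3A2, at 91.9 CPM per kb, had a size effect of 0.014 (FDR = 0.985). SLC7A5, the light chain LAT1, at 65.3 CPM per kb of a short gene model, had 0.36 (SE 0.11, FDR = 0.478). The plasma and choroid plexus carrier TTR, at 36.9 CPM per kb, ranged from 4.33 to 146 CPM among SGA CON piglets and from 1.65 to 24.6 CPM among AGA HF piglets, and its size effect of 0.39 had an SE of 0.52 (FDR = 0.932).

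Of 8 genes for the other deiodinases, selenoprotein synthesis and DIO2 turnover, 7 were tested, and their median size effect was 0.021. The inactivating deiodinase DIO3 was at 3.48 CPM per kb, with a size effect of 0.16 (SE 0.18, edgeR FDR = 0.911). DIO1 had at most 1 count in any library. Among the genes of DIO2 ubiquitination, WSB1 was at 38.9, USP20 at 26.2, MARCH6 at 19.5 and USP33 at 2.40 CPM per kb, and their size effects were 0.021, 0.042, -0.00099 and 0.053. EEFSEC, the selenocysteine elongation factor, was at 3.64 CPM per kb with a size effect of -0.0012.

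Of 18 receptor partners and coregulators 15 were tested, with a median size effect of -0.020. GPS2, a subunit of a nuclear receptor corepressor complex, was the most abundant per length at 104 CPM per kb. With all litters in the same edgeR fit it was the 1 gene of the 4 lists that was called in a pairwise comparison, at 0.22 in SGA HF vs AGA HF (SE 0.054, edgeR FDR = 0.373), and its size effect was 0.15 (FDR = 0.402). The deacetylase HDAC3 at 35.3 CPM per kb had a size effect of -0.036 (edgeR FDR = 0.929). RXRB, a dimer partner of both receptors, at 35.3 CPM per kb, had -0.026 (FDR = 0.948). CREBBP was listed with 0 counts in every library.

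Of 14 brain genes known to respond to T3, 12 were tested, and 5 of the 12 had a positive size effect, with a median of -0.011 beside -0.0023 over all genes. The myelin genes CNP, MBP and MAG had negative size effects and were not called, at -0.27 (edgeR FDR = 0.648), -0.097 (FDR = 0.903) and -0.091 (FDR = 0.906). With litter as a replicate block, in a fit without surrogate variables, CNP (-0.42, edgeR FDR = 0.0366) and MBP (-0.32, FDR = 0.182) were called for size. CNP was also called with cohort and sex in place of surrogate variables (-0.42, FDR = 0.286), when adjusted within the contrast (FDR = 0.357), and without litter 4 or litter 5. The neuronal calmodulin-binding protein NRGN, at 1928 CPM per kb, had 0.073 (FDR = 0.771). The summed oligodendrocyte markers, which include MBP and MAG, were at 6661 to 10481 CPM in SGA CON against 10028 to 13288 CPM in AGA CON, and at 5894 to 12677 CPM in SGA HF against 6941 to 13859 CPM in AGA HF. For diet the median of the 12 was 0.00018, and MBP had -0.22 (FDR = 0.713).

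**Figure D5:**
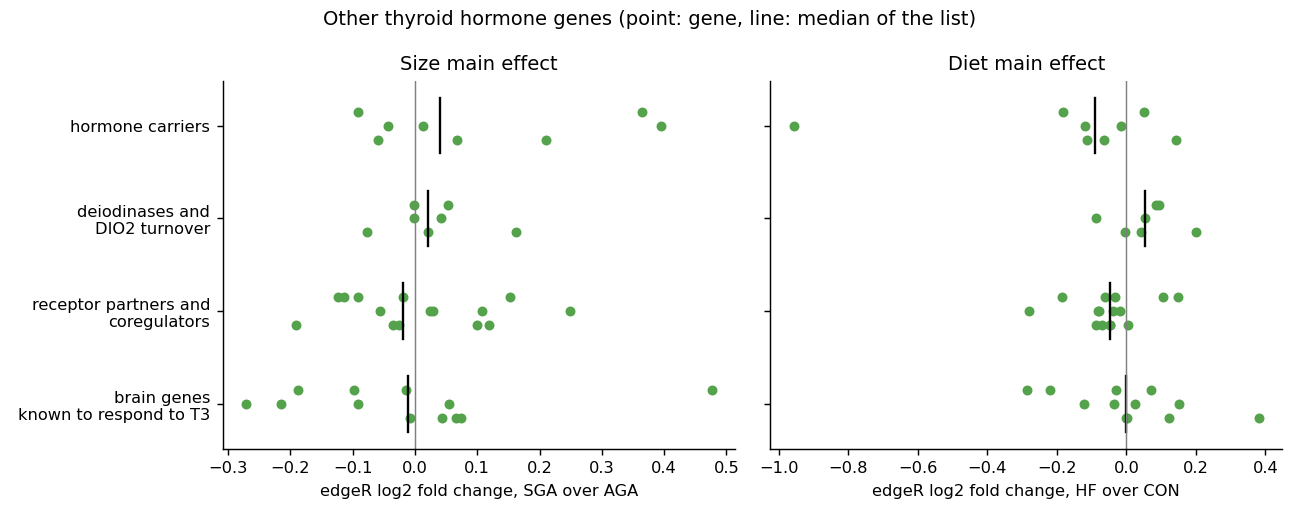
edgeR log2 fold changes of the tested genes in the 4 further lists, for size (left) and diet (right), with 1 point per gene and a line at the median of each list. The medians lie within 0.1 of 0 in both panels, and no gene was called in either in the edgeR fit with surrogate variables and all 12 litters, while other settings called up to 2 genes of a list with all litters.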

How the data were processed

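The authors trimmed single-end reads with Trimmomatic 0.33, aligned them to Sscrofa10.2 with STAR 2.5.2a and counted reads on exons of each Entrez gene with featureCounts in its reversely stranded setting (Subread 1.5.0). They deposited raw read counts per gene, 1 table per library. An entry without identifier (0.613 to 1.62% of counts) was left out. Symbols came from a Sscrofa11.1 table, where 23036 of 38882 identifiers matched. Genes that reached 1 CPM in 3 or more libraries were normalized by TMM. They were fitted in R 4.3.3 with the quasi-likelihood test of edgeR 4.0.16, with terms for group, sex and 5 surrogate variables (sva 3.50.0). Limma 3.58.1 and DESeq2 1.42.0 were alternatives. The FDR p threshold of 0.4 is the one the study names for choosing heat map genes, and was also used for the exact litter tests, which used log2 CPM (prior count 2). Scripts were tested on simulated data.

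Labels give each pair its own litter number, from 1 to 12. Littermates deviated together, with a mean correlation of 0.154 (0.0144 to 0.329, over 0.1 in 9 of 12 pairs). No 2 libraries of a group agreed within sampling noise. The genes, lists and tests were chosen with earlier results of these data known. Named genes are the 7 members, those of each list that were called or are among its 4 highest in CPM per kb, and the 3 genes most like each member, though a few genes that this rule names are left out here. DIO3, USP33, MAG, DIO1, CREBBP, FOXJ1, RAX, RELN, TBL1XR1, CARM1, POMC and WFS1 were added after their values were seen. No sequences are shown, since none was used here.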

Additional observations from a re-analysis of the deposited data

Results flagged for a closer look

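Among the 28 sets of 6 piglets (7 genes in 4 groups), 3 held a piglet far from the other 5 by Dixon's test at 95%, where chance alone would mark about 1 in 20. DIO2 was at 2.71 CPM in AGA HF replicate 3, with the other AGA HF piglets at 0.542 to 1.05 CPM. KLF9 was at 2.71 CPM in the same piglet, with the others at 0.800 to 1.49 CPM. Both values are 21 counts. SLCO1C1 was at 49.6 CPM in SGA HF replicate 3, from 385 counts, with the other SGA HF piglets at 22.5 to 31.8 CPM. These piglets are the littermates of litter 5.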

How the results depend on the processing

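The 7 genes were read again under other normalization, filters, tools, covariates and adjustment, within cohorts, with litter as a replicate block, and leaving out each litter. The random block was added for size and the interaction after seeing the data. In edgeR 0 of 7 were called in each contrast, except that adjusting within each contrast called 1 for size. That adjustment also took the genes called for size over the whole table from 78 to 1200. Over the 12 litters left out, 0 to 1 were called for size, 0 to 2 for diet, 0 to 1 for SGA HF vs AGA HF and 0 to 2 for AGA HF vs AGA CON, each highest without litter 5. Totals over all genes were highest without litter 5 as well. The littermate test called 1 to 3 and the cohort test 0 to 2. The replicate block, fixed or random, was fitted without surrogate variables and changed no call of the 7 genes. Genes called for size went from 78 to 420 with the fixed and 58 with the random block, and to 13 without surrogate variables and block. Over the alternatives on all 12 litters or within cohorts, and leaving the adjustment as it was, totals ran from 0 to 420 for size and 0 to 88 for diet.

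Signs turned only in values that were not called. For size, DIO2 was 0.0095 with limma voom, 0.015 and 0.067 with litter as a fixed and as a random replicate block, and -0.17 to 0.14 over litters left out. HR was -0.069 without surrogate variables, -0.072 with cohort and sex in their place, -0.14 and -0.023 within cohorts 1 and 2, -0.078 and -0.077 with the fixed and random block, and -0.012 to 0.087 over litters left out. CRYM was -0.031 in cohort 1 and -0.00011 to 0.098 over litters left out, and SLCO1C1 -0.20 to 0.073. For diet, CRYM was -0.035 without surrogate variables, -0.036 with cohort and sex, -0.11 in cohort 2, -0.027 with the random block, -0.032 with counts summed per litter and -0.075 to 0.073 over litters left out. DIO2 was 0.25 and HR -0.058 within cohorts 2 and 1, and -0.20 to 0.12 and -0.026 to 0.098 over litters left out. The SLCO1C1 interaction was -0.12 in cohort 2. In the litter tests, the littermate difference of DIO2 ran from -0.10 to 0.12. For diet DIO2 was 0.22 in cohort 2, HR -0.063 and CRYM 0.061 in cohort 1, and over litters left out they ran from -0.25 to 0.080, -0.011 to 0.10 and -0.079 to 0.014. The cause was not tested. Depth limits DIO2 and KLF9 most.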
